A study of Mus musculus with 6 samples.

Results

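Serum response factor (Srf), its myocardin-related coactivators Mkl1 (MRTF-A) and Mkl2 (MRTF-B), and 37 genes that encode parts of the actin cytoskeleton or are known SRF targets were followed across the cell classes of a single-cell RNA-seq experiment on the mouse melanoma line YUMM2.1. These 40 members were taken by gene symbol from a fixed list, and all 40 were among the 31053 genes of the count matrices. Each had at least 4 UMIs (unique molecular identifiers, 1 per captured transcript) in the cells kept.

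MRTF coactivators bind monomeric actin, which keeps them inactive. When actin polymerizes, the monomer pool falls, MRTF is released into the nucleus, and SRF with MRTF activates promoters that carry a CArG box. Many of the targets encode actin itself and the proteins that bind, bundle or anchor it, and the most muscle-like of them (Acta2, Tagln, Cnn1) mark smooth muscle cells, pericytes and activated fibroblasts.

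The 2 libraries compared were labelled Empty vector (EV) and Bmal1 WT (WT). Bmal1 is the clock transcription factor encoded by Arntl, and the study examined it together with the nonmuscle myosin Myh9 and MRTF-SRF activity. The labels gave YUMM2.1 as the source of both libraries and did not say whether the cells carried an endogenous Bmal1 deletion, or whether they came from culture or from a tumor. The group Bmal1 bHLH was not analysed here because 3 of its 3 deposited parts were identical to those of WT. Each library held 3 replicates that had been marked with hashtag antibodies and run in 1 channel (h1, h7 and h8 in EV; h3, h5 and h9 in WT), so that group and channel cannot be told apart. Nothing in the labels said that the replicates were separate cultures or animals, so the p-values below measure the spread between them, which may be technical.

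After filtering, 3978 EV and 2386 WT cells remained, with medians of 5094 and 7570.5 UMIs per cell, and 3 cell barcodes occurred in both libraries. Cells were assigned to classes from marker genes, none of which was a member. The melanoma-like class (149 EV and 373 WT cells) was defined by 9 markers of the neural crest lineage, Sox10 among them, which summed to 1828 to 3197 CPM (UMIs of a gene per 1000000 UMIs) in the EV and 1283 to 2351 in the WT replicates. In 58 EV and 144 WT cells of this class, under 1% of UMIs were mitochondrial. The fibroblast-like class held 129 and 203 cells, and the macrophage- or monocyte-like class 566 and 316. Of the latter, 130 and 65 lay in graph cluster 15, in which 5 of 6 neutrophil markers were raised. The genes most raised in that cluster included Lyz2, Adgre4 and Ace beside the neutrophil marker S100a9, so its cells are not taken as neutrophils here. Dendritic-cell-like cells (325 and 203) and T- or NK-cell-like cells (1636 and 585) served for comparison. Immune cells and fibroblasts were thus part of material labelled as a cell line. In melanoma-like cells the Arntl level was 64.6 CPM in EV and 63.8 in WT, with 95% Poisson intervals of 57.9 to 71.9 and 59.4 to 68.3. A 3′ tag does not capture an expression construct that lacks the gene's own 3′ end, so this level does not check the labels.

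A match to the CArG box consensus (a pair of C, 6 bases that are each A or T, and a pair of G, the same on both strands) was looked for from 250 bases before to 50 bases after the start sites of RefSeq (GRCm38.p6). Promoters were found for 35 of the 40 members. Those of Actb, Actg2, Tagln, Thbs1 and Ctgf were not found, so these genes were not searched for the box. The box occurred in 7 of these 35 genes (20%), beside 488 of 27025 genes (1.81%) over the whole table. Because known SRF targets were put on the list, this difference in share describes the list and is no result of these data. Srf itself carried a pair of boxes and Fhl2 had one at each of 2 start sites. The boxes of Srf, the cytoplasmic actin gene Actg1, the calponin gene Cnn2 and the focal adhesion gene Vcl (vinculin) are shown with 20 bases on each side. Srf encodes the factor that reads the box, and Actg1, Cnn2 and Vcl were tested in all 3 classes compared, as was Lima1, whose box is not shown. Capitals mark the box, the strand is that of the gene, and positions count back from the first transcribed base.
Srf, box at -82 to -73, chr17:46556215-46556264, minus strand: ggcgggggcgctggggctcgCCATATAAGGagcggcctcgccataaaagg
Srf, box at -62 to -53, chr17:46556195-46556244, minus strand: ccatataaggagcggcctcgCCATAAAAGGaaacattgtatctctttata
Actg1, box at -90 to -81, chr11:120348556-120348605, minus strand: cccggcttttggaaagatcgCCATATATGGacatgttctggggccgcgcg
Cnn2, box at -56 to -47, chr10:79988524-79988573, plus strand: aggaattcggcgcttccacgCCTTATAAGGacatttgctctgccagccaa
Vcl, box at -227 to -218, chr14:20929151-20929200, plus strand: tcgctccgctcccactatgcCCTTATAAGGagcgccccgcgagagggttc
The other matches were in Fhl1, Fhl2 and Lima1, which encode LIM-domain proteins. The Cnn2, Vcl and Lima1 boxes had the same 10 letters. A match is a stretch of letters and no measured site of binding.

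Levels by cell class were compared first, in CPM over all cells of a class in a library. Levels are a description, with no test. Srf itself was near even. It was at 43.2 CPM in EV and 45.7 in WT melanoma-like cells, 28.8 and 34.9 in fibroblast-like cells, and 35.3 and 29.2 in macrophage- or monocyte-like cells. The coactivators were not even. Mkl1 was highest in dendritic-cell-like cells (99.8 CPM in EV and 78.2 in WT), where its 6 replicates lay between 68.1 and 106 CPM, above the 25.3 to 43.2 of T- or NK-cell-like cells, the next class. It was at 16.2 and 16.4 CPM in melanoma-like cells. Mkl2 was highest in fibroblast-like cells, at 35.04 and 32.87 CPM, although its replicates there (9.28 to 48.7 CPM) overlapped those of the next class, T- or NK-cell-like cells (12.5 to 19.6 CPM).

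**Figure D1:**
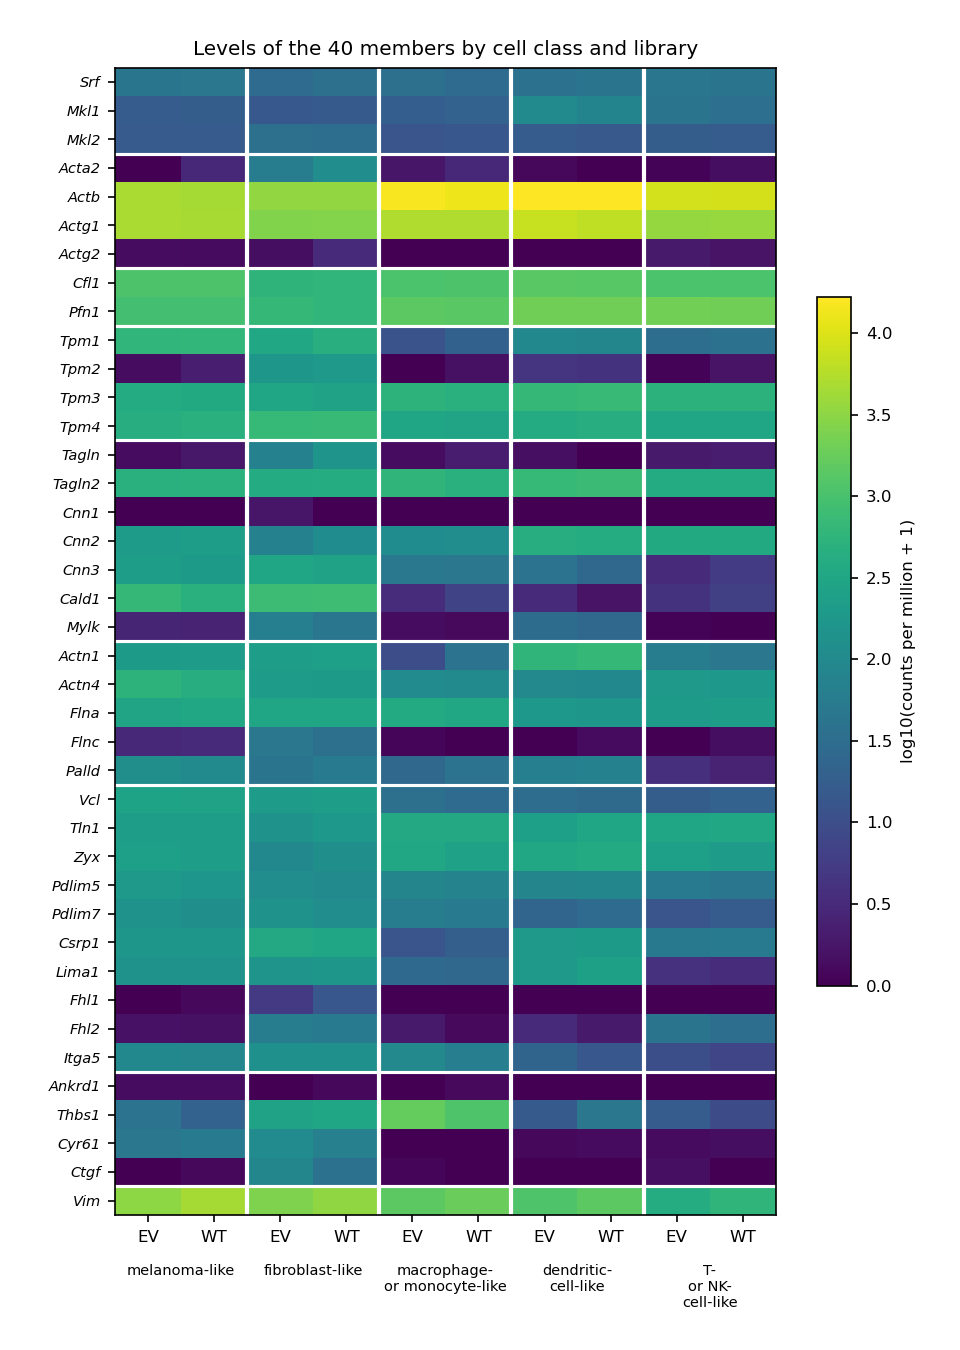
Colour gives log10(CPM + 1) of the 40 members (rows) in all cells of each class (columns, EV and WT side by side), with white lines between gene families and between classes. Acta2, Tpm2, Tagln, Mylk, Flnc and Ctgf are bright in fibroblast-like cells and dark in melanoma-like cells, and Thbs1 is brightest in macrophage- or monocyte-like cells.

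Most muscle-type members were at or near 0 in melanoma-like cells. Of the 40 members, 29 reached 5 CPM there in at least 1 library, and 11 did not: Acta2, Actg2, Tpm2, Tagln, Cnn1, Mylk, Flnc, Fhl1, Fhl2, Ankrd1 and Ctgf. Acta2, the smooth muscle actin, had no UMI in EV melanoma-like cells, which allows up to 0.578 CPM, and was at 1.92 CPM in WT. Cnn1, the smooth muscle calponin, had no UMI in either library. Ctgf, a secreted matricellular target, was at 0 and 0.240 CPM, whereas Cyr61 of the same protein family was at 45.7 CPM in EV and 57.1 in WT.

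Fibroblast-like cells expressed most of these genes. In that class 37 of the 40 members reached 5 CPM, all but Actg2, Cnn1 and Ankrd1. Acta2 was at 59.2 CPM in EV and 118 in WT, Tagln (transgelin, SM22) at 71.3 and 153, and Tpm2 (a muscle-type tropomyosin) at 170 and 186. Mylk, the myosin light chain kinase, was at 65.1 and 44.5 CPM, and Ctgf at 85.9 and 38.7. The 6 replicates of Tpm2 in fibroblast-like cells (116 to 214 CPM) all lay above those of the next class (0 to 5.58 CPM).

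Another set was shared by melanoma-like and fibroblast-like cells and low in immune cells. Tpm1, a tropomyosin of stress fibres, was at 595 and 626 CPM in melanoma-like cells and 325 and 448 in fibroblast-like cells, against 11.0 and 19.6 in macrophage- or monocyte-like cells. Cald1 (caldesmon) was at 644 and 473, 788 and 817, and 2.41 and 6.27 CPM in the same order. Vcl was at 280 and 267, 217 and 228, and 35.3 and 29.5 CPM. The alpha-actinin Actn4 and the bundling protein Palld (palladin) were highest in melanoma-like cells, where the replicates of each (377 to 770 CPM for Actn4, 113 to 300 for Palld) lay above those of the next class.

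The immune classes had their own members. Actb, the cytoplasmic beta-actin, was at 14925 and 13203 CPM in macrophage- or monocyte-like and at 16682 and 16687 in dendritic-cell-like cells, against 4906 and 4545 in melanoma-like cells. Actn1, the other nonmuscle alpha-actinin, was at 580 and 641 CPM in dendritic-cell-like cells and at 8.83 and 39.3 in macrophage- or monocyte-like cells. Thbs1 (thrombospondin-1, a secreted matrix glycoprotein) was highest in macrophage- or monocyte-like cells, at 1693 and 1166 CPM, with replicates between 783 and 2583 CPM that lay above the 125 to 436 of fibroblast-like cells. Fhl2, a LIM coactivator, was highest in fibroblast-like cells (58.8 and 54.6 CPM), and among the immune classes it was at 41.1 and 33.2 CPM in T- or NK-cell-like and near 0 in macrophage- or monocyte-like cells (1.003 and 0.273). Together the members took 2.21% ± 0.196 (SD, n = 3) of the UMIs of EV and 2.56% ± 0.451 of WT melanoma-like cells, 1.41% ± 0.257 and 1.55% ± 0.0748 in fibroblast-like cells, and 2.78% ± 0.422 and 2.70% ± 0.293 in macrophage- or monocyte-like cells. The spread of the replicates overlapped between EV and WT in each of these 3 classes.

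The clusters named melanoma-like differed by over 2-fold in 3 members in both libraries. A graph clustering that used neither members nor markers spread the melanoma-like class mainly over 4 clusters. Clusters 19 and 22 were shallow (median 2819 and 1395.5 UMIs), stayed unnamed and were left out here. The melanoma-like clusters were cluster 17 (51 EV and 117 WT cells, median 24433 and 23564 UMIs per cell) and cluster 18 (52 and 185 cells, median 57173.5 and 59154 UMIs). Of the 9 melanoma markers, 9 were raised in cluster 17 and 5 in cluster 18. The marker gate kept 41 EV and 113 WT cells of cluster 17 as melanoma-like, and 38 and 92 of cluster 18. The values below use all cells of a cluster. Because clusters follow correlated genes and these clusters differed in depth, the values are a description. Of 30 members with at least 100 UMIs in these cells, 3 were over 2-fold higher in cluster 18 in both libraries and 0 were over 2-fold lower, beside 3.21% and 3.91% of the 9929 genes with as many UMIs (1 CPM was added to both sides). The 3 were Actn1, Palld and Itga5 (the fibronectin receptor subunit integrin alpha 5), which take part in focal adhesions and stress fibres. Actn1 was at 79.8 CPM in cluster 17 and 286 in cluster 18 of EV, and at 71.8 and 341 in WT. Palld was at 29.1 and 169 CPM in EV and at 36.4 and 131 in WT. Itga5 was at 47.5 and 117 CPM in EV and at 45.0 and 131 in WT. That the order of the clusters is the same in both libraries follows from how these 3 genes were chosen. Vcl differed little, with 265 and 300 CPM in EV and 294 and 289 in WT.

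Acta2 had no UMI in cluster 17 and none in EV cells of cluster 18, and 191 UMIs in WT cells of cluster 18. These lay in 16 of 185 cells, with 72 UMIs in 1 cell. The marker gate kept 92 of these 185 cells as melanoma-like.

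**Figure D2:**
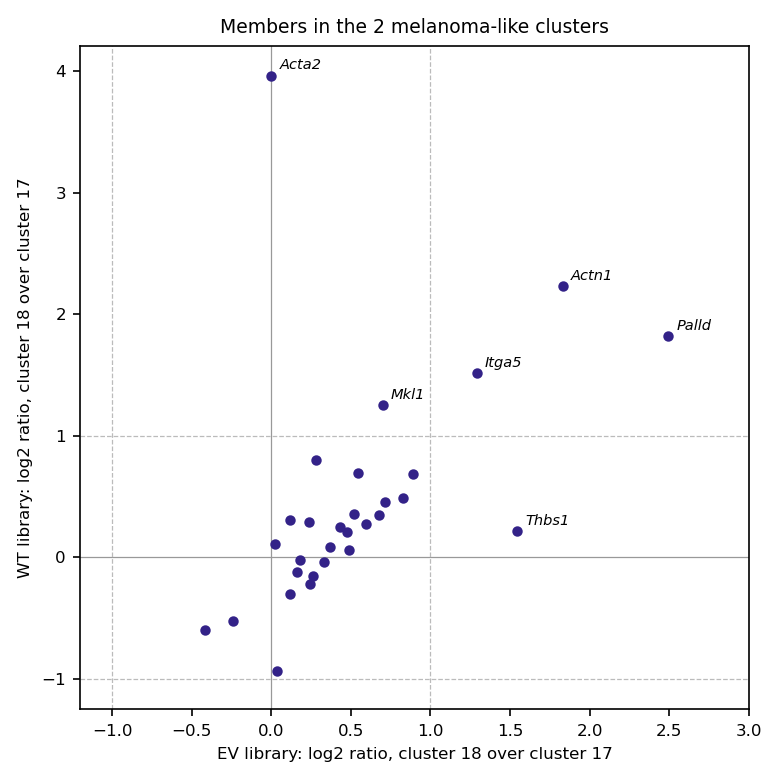
Each point is 1 of the 30 members with at least 100 UMIs, placed by its log2 ratio of CPM (1 CPM added) in cluster 18 over cluster 17 in the EV library (x axis) and in the WT library (y axis). Dashed lines mark 2-fold. Actn1, Palld and Itga5 are past 2-fold in both libraries, and Acta2 stands apart in the WT library.

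The comparison of WT with EV asked whether Bmal1 goes with a change in SRF and actin genes in melanoma-like cells. UMIs were summed per hashtag replicate over cells with exactly 1 hashtag (31, 7 and 25 cells in EV and 16, 65 and 27 in WT) and tested in edgeR by quasi-likelihood, with p-values adjusted over all genes by the Benjamini-Hochberg method. No member passed. Of 8282 genes with at least 100 UMIs, edgeR called 0 (0.0%) at an adjusted p under 0.05, 228 (2.75%) had an unadjusted p under 0.05, and DESeq2 called 0 (0.0%). Of the 29 members tested, 0 were called and 3 had an unadjusted p under 0.05, with 2 higher and 1 lower in WT. The members' median log2 fold change was 0.17, beside -0.0013 over all genes tested, and 22 of the 29 were above 0, beside 49.8% of all genes. The spread of replicate medians of the members within a group was 0.19 on the log2 scale (SD), about as large as that median.

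Cnn2, a nonmuscle calponin that stabilises actin filaments, was at 198, 104 and 222 CPM in EV replicates h1, h7 and h8 and at 355, 227 and 451 in WT replicates h3, h5 and h9. The groups did not overlap, though the highest EV replicate (222 CPM) and the lowest WT replicate (227 CPM) were close. The log2 fold change was 0.87 ± 0.32 (SE, n = 3 against 3), and the edgeR adjusted p was 0.9999. Tagln2, a transgelin found outside muscle, was at 462, 326 and 469 CPM in EV and 637, 577 and 647 in WT, again without overlap, with a log2 fold change of 0.53 ± 0.21 and an adjusted p of 0.9999. Thbs1 was at 57.7, 91.4 and 25.2 CPM in EV and 21.6, 21.8 and 23.9 in WT. Its log2 fold change was -1.07 ± 0.42, with an adjusted p of 0.9999, and 52 of the 103 UMIs of h1 came from 1 cell. Nonoverlapping replicates were seen for 5 of the 29 members (Cnn2, Tagln2, Srf, Csrp1 and Thbs1), beside 9.37% of all genes tested.

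Among the transcription factors and actins, only Srf had replicates that did not overlap. Srf was at 45.4, 39.2 and 37.6 CPM in EV and at 62.7, 45.8 and 64.2 in WT, with a log2 fold change of 0.46 ± 0.26. The highest EV replicate (45.4 CPM) and the lowest WT replicate (45.8 CPM) were close, and the value of h7 rested on 3 UMIs. Mkl1 (0.02 ± 0.46), Mkl2 (0.10 ± 0.39), Actb (0.01 ± 0.26) and Actg1 (0.15 ± 0.27) had log2 fold changes smaller than their SE. The stress-fibre gene Tpm1 (0.39 ± 0.28) and the adhesion gene Vcl (0.59 ± 0.35) had values above their SE, and Cyr61 (0.17 ± 0.44) did not. By family, the medians ran from -0.45 in the 2 secreted targets tested to 0.43 in the 8 adhesion and LIM genes tested. Acta2, Tagln, Cnn1, Ankrd1 and Ctgf had too few UMIs to be tested in this class. Vim (vimentin), the mesenchymal intermediate filament, had 3023, 888 and 4227 CPM in EV and 4150, 4591 and 4867 in WT. EV replicate h7, with 7 cells and 76581 UMIs, was the low one.

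**Figure D3:**
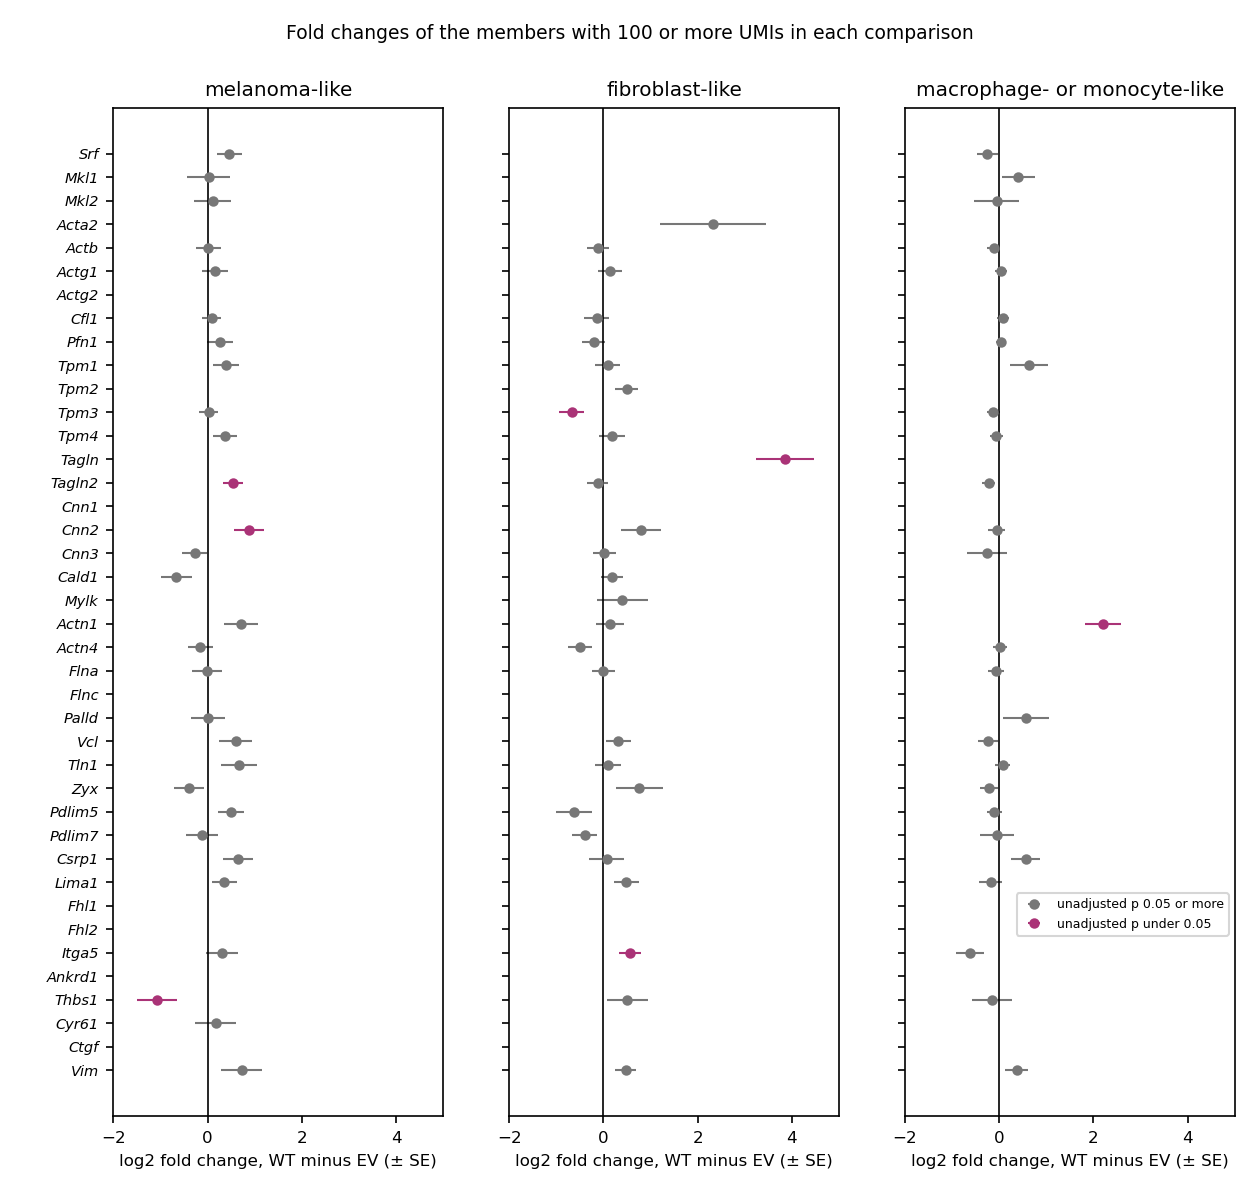
Points give the log2 fold change of WT minus EV with its SE (edgeR, 3 hashtag replicates a group) for the members with at least 100 UMIs, in melanoma-like, fibroblast-like and macrophage- or monocyte-like cells. Members with an unadjusted p under 0.05 are in purple (3, 3 and 1), none with an adjusted p under 0.05. Tagln and Acta2 in fibroblast-like cells and Actn1 in macrophage- or monocyte-like cells lie farthest to the right.

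The melanoma-like cells that carried no single hashtag gave another direction. They made up 57.7% of the class in EV and 71.0% in WT, more than the 11.3% and 7.91% of macrophage- or monocyte-like cells, and could enter no replicate. Cnn2 was at 188 CPM in EV and 153 in WT in these cells, a log2 ratio of -0.29 (95% counting interval -0.49 to -0.10), against 0.53 (0.41 to 0.65) in the cells with 1 hashtag. Tagln2 had a log2 ratio of -0.26 (-0.38 to -0.14) against 0.38 (0.30 to 0.46), and Actn1 of -0.41 (-0.60 to -0.22) against 0.57 (0.45 to 0.70). Srf had a log2 ratio of -0.28 (-0.67 to 0.10) against 0.34 (0.07 to 0.62). Thbs1 (-0.79 and -0.90) and Vim (0.94 and 0.36) kept their sign. Among 28 members with at least 20 UMIs in each of the 4 sets of cells, 12 had the same sign in both kinds of cell, beside 57.4% of 7602 genes. With 1 pool of cells per library, these intervals cover counting error only. Of the melanoma-like cells, 37 in EV and 128 in WT lay in the shallow cluster 19. Few of those carried 1 hashtag, with 3, 4 and 2 in h1, h7 and h8 and 5, 9 and 4 in h3, h5 and h9. The kinds of cell thus differed in their share of shallow cells. Whether that bears on the signs was not tested.

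Cluster 18 gave 56.1%, 79.3% and 72.5% of the melanoma-like UMIs of EV replicates h1, h7 and h8 and 68.4%, 52.1% and 98.2% of those of WT replicates h3, h5 and h9. These shares overlapped between EV and WT. In the same order of replicates, Cnn2 was at 198, 104 and 222 CPM in EV and at 355, 227 and 451 in WT. Whether the shares bear on Cnn2 was not tested. Over all cells of a cluster, which include cells without a single hashtag and cells outside the marker gate, Cnn2 was at 238 CPM in EV and 232 in WT in cluster 18 and at 128 and 144 in cluster 17. These pooled values are not those of the replicates, since h9, with 98.2% of its UMIs from cluster 18, was at 451 CPM. The summed level of 10 fibroblast markers, 9 of them detected and Dpt at 0, was 52.2 to 208 CPM in the EV and 218 to 317 CPM in the WT replicates of melanoma-like cells. The part of fibroblast transcripts in the members' values was not tested.

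In fibroblast-like cells, Tagln was the member that differed most. The replicates held 13, 8 and 11 cells in EV and 13, 10 and 12 in WT. Of 2965 genes tested, edgeR called 0 (0.0%), 239 (8.06%) had an unadjusted p under 0.05, and DESeq2 called 13 (0.438%). Of the 28 members tested, edgeR called 0, and 3 had an unadjusted p under 0.05. Tagln (chr9:45929619-45936058) was at 26.6, 28.9 and 6.74 CPM in EV and at 396, 359 and 118 in WT. The groups did not overlap, with a log2 fold change of 3.86 ± 0.61 and an adjusted p of 0.324 by edgeR, while DESeq2 gave a log2 fold change of 3.91 and an adjusted p of 8.5e-07, the 1 member among its 13 calls. Over the alternatives of processing the adjusted p ran from 5.4e-12 to 0.875.

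The Tagln UMIs came from few cells. In WT replicate h5, 114 of 116 UMIs lay in 1 cell of 10, in h3 a pair of cells held 54 and 32 of 124, and in h9 1 cell held 16 of 35. With the top cell's UMIs left out, the levels were 223, 6.19 and 63.8 CPM in h3, h5 and h9. The fibroblast-like cells without a single hashtag, 97 in EV and 168 in WT, were at 94.2 and 116 CPM, a log2 ratio of 0.30 (0.03 to 0.56). EV fibroblast-like cells with 1 hashtag, at 6.74 to 28.9 CPM, were thus below the other EV cells of the same class. Among cells with no UMI of a pericyte or smooth muscle marker, 37 Tagln UMIs remained, too few to be tested, at 85.0, 54.7 and 19.8 CPM in EV and 203, 19.05 and 37.1 in WT, where the groups overlapped. Of the 6 markers of pericytes and smooth muscle, Rgs5, Abcc9, Kcnj8 and Myh11 were at 0, and the summed level was 43.3 to 106 CPM in EV and 46.4 to 102 in WT.

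Acta2 showed a like concentration, with 4.43, 38.5 and 13.5 CPM in EV and 9.57, 232 and 33.6 in WT. The groups overlapped, 63 of the 75 UMIs of h5 lay in 1 cell, and the log2 fold change was 2.33 ± 1.12 (adjusted p = 0.625, edgeR). Ctgf, which was not tested, differed between the kinds of cell: it had 9 and 29 UMIs in EV and WT cells with 1 hashtag and 197 and 144 in the others, where 1 cell held 99 and 94 of them. Cyr61 was lower in WT in both kinds of cell, with log2 ratios of -0.90 (-1.49 to -0.32) and -0.74 (-1.01 to -0.48), and its replicates overlapped (124, 14.4 and 87.7 CPM in EV; 44.7, 0 and 84.0 in WT).

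**Figure D4:**
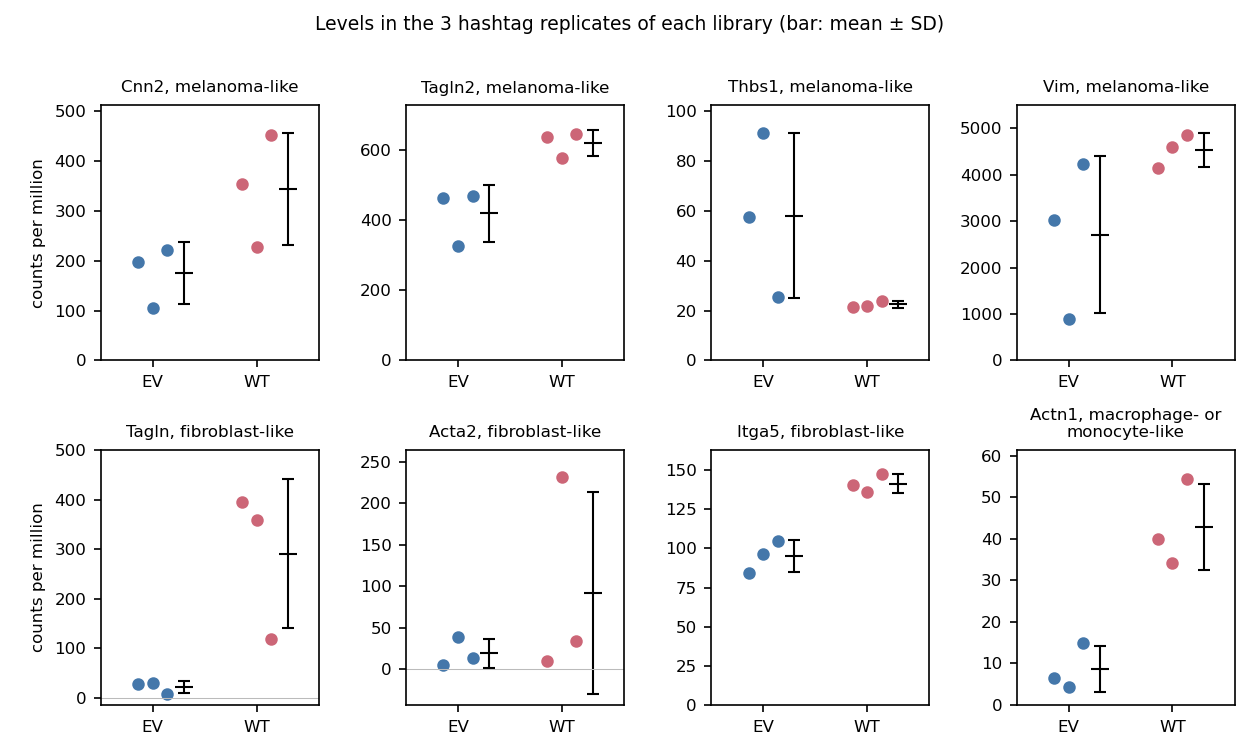
Points give the CPM of 8 pairs of member and class in the 3 EV (blue) and 3 WT (red) hashtag replicates, with mean ± SD beside them, on linear axes. Cnn2, Tagln2, Thbs1, Tagln, Itga5 and Actn1 do not overlap between the groups, while Vim and Acta2 do.

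The other fibroblast-like members differed less. Itga5 was at 84.2, 96.3 and 105 CPM in EV and 140, 136 and 148 in WT (log2 fold change 0.57 ± 0.24), and Tpm3, a tropomyosin of nonmuscle cells, at 261, 448 and 354 in EV and 191, 251 and 225 in WT (-0.67 ± 0.27). Both had an adjusted p of 0.602 by edgeR. In cells without a single hashtag the log2 ratio was -0.19 (-0.41 to 0.04) for Itga5 and -0.02 (-0.18 to 0.13) for Tpm3. Actb (-0.12 ± 0.24), Actg1 (0.14 ± 0.25), Tpm1 (0.09 ± 0.27), Vcl (0.31 ± 0.26) and Thbs1 (0.51 ± 0.44) did not pass the test, and Srf, Mkl1, Mkl2, Cnn1, Ankrd1, Cyr61 and Ctgf were among the 12 members with too few UMIs. The members' median log2 fold change was 0.14, beside -0.03 over all genes. Replicates did not overlap for 7 of the 28 members (5 higher, 2 lower), beside 13.9% of all genes. Macrophage markers summed to 0 to 779 CPM in EV and 3.09 to 19.1 in WT replicates of this class, with Adgre1, C1qa, C1qc and Ms4a7 at 0. Neutrophil markers, 3 of 6 detected and S100a8, S100a9 and Retnlg at 0, summed to 88.6 to 1396 CPM in EV and 16.8 to 89.4 in WT, and the 10 T or NK cell markers, all detected, to 19.3 to 405 and 16.8 to 102. The part of these transcripts was not tested.

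In macrophage- or monocyte-like cells, the member that differed most was Actn1. This class had 262, 67 and 173 cells with 1 hashtag in EV and 152, 80 and 59 in WT. Of 6824 genes tested, edgeR called 0 (0.0%), 877 (12.9%) had an unadjusted p under 0.05, and DESeq2 called 13 (0.191%). Of the 27 members tested, edgeR called 0 and 1 had an unadjusted p under 0.05. Their median log2 fold change was -0.05, the same as over all genes tested (-0.05), and 2 did not overlap between the groups (Actn1 and Tagln2), beside 18.5% of all genes.

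Actn1 (chr12:80167547-80260371) was at 6.59, 4.43 and 14.9 CPM in EV and at 39.9, 34.2 and 54.3 in WT. All WT replicates lay above all EV replicates, with a log2 fold change of 2.20 ± 0.38 and an adjusted p of 0.268 by edgeR. DESeq2 gave a log2 fold change of 2.26 and an adjusted p of 0.0014, and edgeR with a stricter class margin gave 2.71 and 0.0283. Over the alternatives of processing the adjusted p ran from 3.2e-06 to 0.656. Of the WT UMIs, 69 of 144 lay in 5 cells of cluster 5, which was dendritic-cell-like, the class where Actn1 was highest (580 and 641 CPM), and EV had no such cell in this class. Within cluster 9, which held the most cells of the class, Actn1 was at 11.1 CPM in EV and 28.5 in WT, within cluster 6 at 3.55 and 23.7, and within cluster 15 at 3.52 and 0. Without any cell that had a UMI of a dendritic cell marker, 65 Actn1 UMIs remained, too few to be tested, at 5.79, 0 and 8.54 CPM in EV and 22.2, 21.0 and 43.9 in WT, where the groups did not overlap. Over all cells of the class, the summed dendritic cell markers were 95.5 to 195 CPM in EV and 52.2 to 140 in WT, with 8 of 9 detected and Siglech at 0. The 9 melanoma markers summed to 2.88 to 7.75 CPM in EV and 10.9 to 24.3 in WT, and their part was not tested.

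Thbs1 was at 1518, 1160 and 2058 CPM in EV and 783, 892 and 2583 in WT. The groups overlapped, with a log2 fold change of -0.16 ± 0.43 (adjusted p = 0.910, edgeR), and the high WT replicate was h9. Actb (-0.12 ± 0.14), Actg1 (0.04 ± 0.12) and Mkl2 (-0.05 ± 0.48) were within their SE. The values were -0.25 ± 0.22 for Srf, 0.40 ± 0.35 for Mkl1, 0.63 ± 0.40 for Tpm1 and -0.24 ± 0.21 for Vcl. Acta2, Tagln, Cnn1, Ankrd1, Cyr61 and Ctgf were among the 13 members with too few UMIs.

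**Figure D5:**
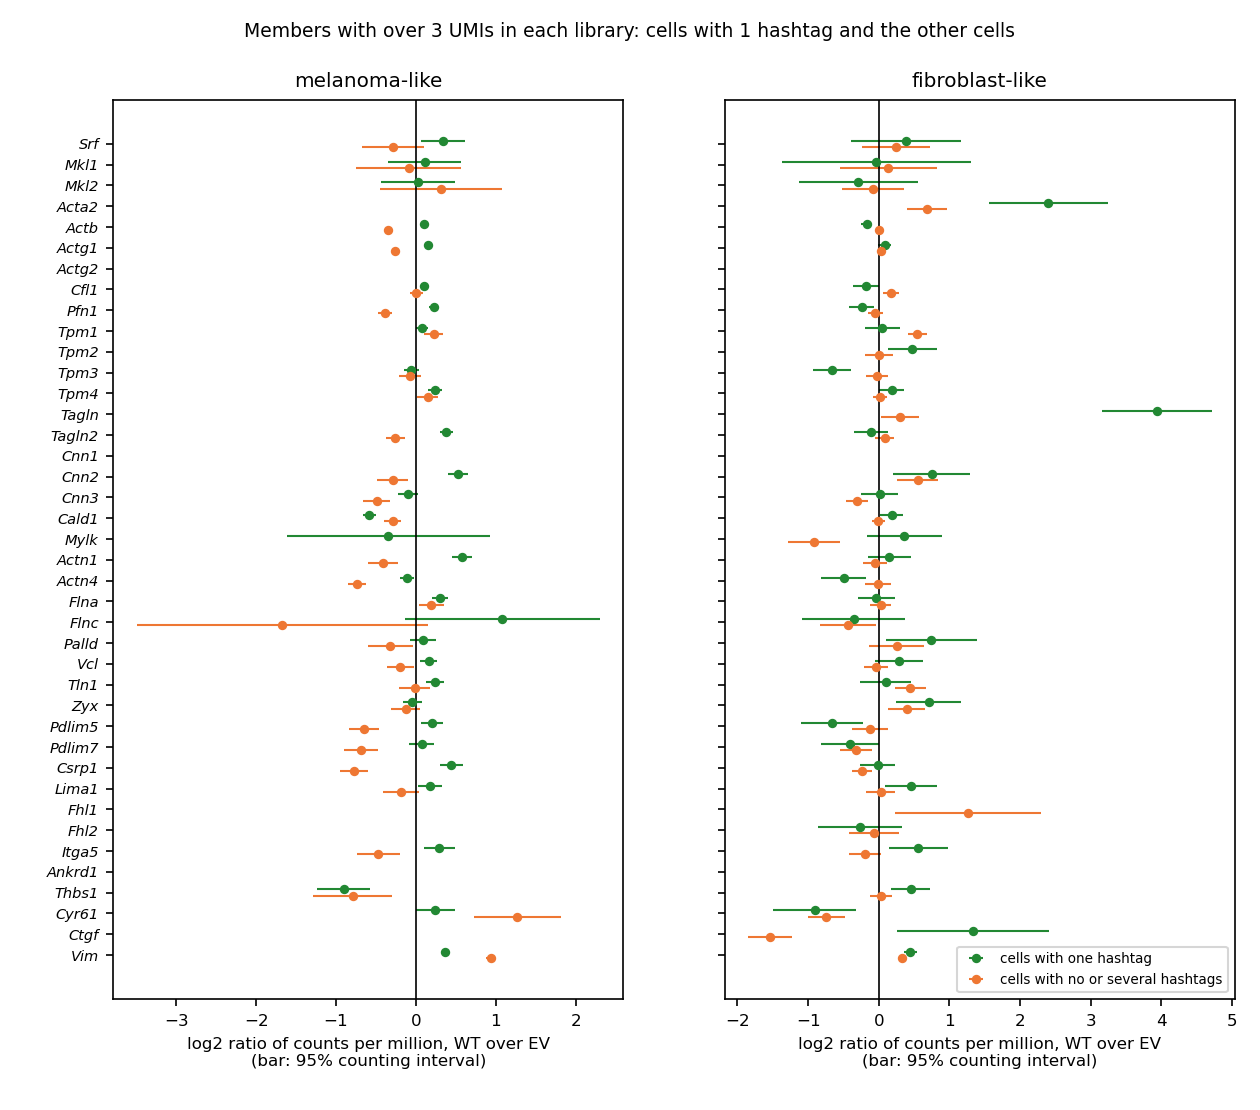
Points give the log2 ratio of CPM in WT over EV with its 95% counting interval, for members with over 3 UMIs in each library, in cells with exactly 1 hashtag (green) and in cells with no or several hashtags (orange). In melanoma-like cells Cnn2, Tagln2 and Actn1 lie on opposite sides of 0, and in fibroblast-like cells Tagln and Acta2 are far from 0 in cells with 1 hashtag.

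Whether the effect of WT differed between classes was tested with the hashtag replicate as a block. Against fibroblast-like cells, edgeR called 4 of 8901 genes (0.0449%) and 0 of 33 members. An unadjusted p under 0.05 was found for 5.76% of genes and 1 member, Pdlim5 (difference of log2 fold changes 1.18 ± 0.47). Against macrophage- or monocyte-like cells, 0 of 9866 genes (0.0%) and 0 of 29 members were called. The unadjusted p was under 0.05 for 6.57% of genes and for 6 members. The log2 fold change of WT minus EV was lower in melanoma-like cells for Actn1 (difference -1.53 ± 0.43) and Cald1 (-2.08 ± 0.70). It was higher there for Cnn2, Itga5, Tagln2 and Vcl. Cald1 had too few UMIs to be tested in macrophage- or monocyte-like cells alone. In that class it had 11 UMIs in EV and 23 in WT cells with 1 hashtag.

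A list of 46 other genes of the pathway was read the same way. It held formins upstream of actin, the Arp2/3 and capping subunits, myosin genes and SRF partners. In melanoma-like cells 42 were tested, 0 were called by edgeR, and 1 had an unadjusted p under 0.05, which was Myl9, a regulatory myosin light chain (log2 fold change 2.50 ± 0.86). Its edgeR adjusted p was 0.9999. Myl9 was at 6.73, 0 and 8.76 CPM in EV and 47.0, 6.65 and 77.7 in WT, so the groups overlapped. WT replicate h9 held 127 of its UMIs, against 24 in h3 and 25 in h5. The next smallest p-values were those of Itgb1 (0.55 ± 0.27), Pfn2 (-1.42 ± 0.74), Vasp (0.55 ± 0.29) and Coro1c (0.41 ± 0.23). The median log2 fold change of the 42 pathway genes tested was 0.06, beside -0.0013 over all genes.

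In fibroblast-like cells 30 of the 46 were tested and 0 were called. Myh9, the heavy chain of nonmuscle myosin IIA, was at 244, 207 and 266 CPM in EV and 357, 356 and 339 in WT, which did not overlap. Its log2 fold change was 0.55 ± 0.22 here, 0.18 ± 0.25 in melanoma-like and -0.20 ± 0.17 in macrophage- or monocyte-like cells. Actr2, an Arp2/3 subunit, had -0.61 ± 0.25. Both Myh9 and Actr2 had an adjusted p of 0.602 in fibroblast-like cells (edgeR). Rhoc (0.43 ± 0.22), Tmsb10 (0.56 ± 0.30) and Gsn (-0.53 ± 0.29) followed. In macrophage- or monocyte-like cells 34 were tested and 0 were called. The smallest p belonged to Fos, an immediate early gene that SRF activates, which was at 3345, 3343 and 3125 CPM in EV and 1963, 1995 and 1908 in WT (-0.74 ± 0.10, adjusted p = 0.239 by edgeR). The groups did not overlap. In melanoma-like (0.44 ± 0.50) and fibroblast-like cells (-0.09 ± 0.46) Fos was within its SE. Next in macrophage- or monocyte-like cells came the actin regulator Evl (-0.55 ± 0.15, adjusted p = 0.268), Rhoc (0.79 ± 0.33), Arpc5 (-0.29 ± 0.13) and Actr3 (-0.34 ± 0.15).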

How the data were processed

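Gene and hashtag UMI counts of the EV and WT libraries were used as deposited. Per the file headers and the labels, the authors made them with Cell Ranger 6.1.2 from Chromium v3.1 3′ libraries on mm10, with no normalization. No source used here says how reads that fit near-identical genes were handled, so Actb and Actg1 are uncertain where they share sequence. Cells with at least 200 genes and at most 20% mitochondrial UMIs were kept. Hashtags were called with 2-component mixtures (scikit-learn 1.9.0). Classes came from the mean z-score of markers, with a lead of at least 0.25 and at least 2 markers seen. Clusters were made in scanpy 1.11.5. The doublet caller marked too few cells to be relied on, and its calls were not used to remove any. In an alternative, the 5% of cells with the highest doublet scores in each library were left out.

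Counts were summed per hashtag replicate and class and tested with edgeR 4.0.16 (quasi-likelihood, total UMIs as library size, genes with at least 100 UMIs, Benjamini-Hochberg over all genes). DESeq2 1.42.0, TMM, no gene filter, other hashtag calls, gates, cell filters and weights, and leaving out each replicate were alternatives. The test was checked on simulated counts. Poisson and ratio intervals (95%) cover counting error only. Coordinates are GENCODE M21. Members and lists were chosen with earlier results of these data known. Values are given for 14 fixed members, for up to 8 members per comparison with an unadjusted p under 0.05, and for the 5 pathway genes with the smallest p. Others named were chosen after their values were seen.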

Additional observations from a re-analysis of the deposited data

How the results depend on the processing

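No paired analysis was possible because the hashtag numbers of EV and WT mark different samples and share no animal, culture or day in the labels, so the WT against EV comparisons had no block. The differences between classes, whose hashtag replicates are the same samples, had the replicate as a block, and with no replicate block 0 genes were called against fibroblast-like cells.

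With no filter on genes, edgeR called 35 genes in melanoma-like, 232 in fibroblast-like and 256 in macrophage- or monocyte-like cells, 2 members (Tagln and Acta2) in the second and 1 (Actn1) in the third, and 131 and 93 genes for the differences between classes. DESeq2 called 13 genes and 1 member in each of fibroblast-like and macrophage- or monocyte-like cells. Weighting cells equally gave 1 call in fibroblast-like cells, calling hashtags by centred log count gave 2 in macrophage- or monocyte-like cells, and the stricter margin gave 1 gene there, Actn1. Leaving out 1 replicate each gave 0 to 2 calls in fibroblast-like cells, 0 to 7 and 0 to 2 for the differences, and a members' median of 0.040 to 0.38 in melanoma-like cells, highest without WT replicate 2. Without cells with a pericyte marker UMI, which was added after seeing the data, the fibroblast-like members' median was -0.23.

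Small values changed sign. In melanoma-like cells these were Mkl1 by DESeq2 (-0.11), Mkl2 by clusters (-0.16), by the stricter margin (-0.18) and by equal weights (-1.26), and Actb (-0.10) and Actg1 (-0.10) by clusters. In fibroblast-like cells they were Actg1 (-0.44), Tpm1 (-0.29) and Thbs1 (-0.067) without pericyte-marker cells, and Actg1 (-0.037) and Tpm1 (-0.40) by equal weights. In macrophage- or monocyte-like cells they were Mkl2 by centred log count (0.051), Mkl1 by clusters (-0.26), Actb without dendritic-cell-marker cells (0.011), and Actg1 (-0.030) and Vcl (0.11) by equal weights. Leaving out 1 replicate each gave log2 fold changes of -0.30 to 0.26 for Mkl1, -0.11 to 0.32 for Mkl2, -0.13 to 0.26 for Actb, -0.0012 to 0.37 for Actg1 and -0.14 to 0.94 for Cyr61 in melanoma-like cells. In fibroblast-like cells the ranges were -0.28 to 0.10 for Actb, -0.028 to 0.37 for Actg1 and -0.074 to 0.34 for Tpm1, and in macrophage- or monocyte-like cells -0.069 to 0.13 for Actg1 and -0.92 to 0.13 for Thbs1. The cause was not tested. The fewest cells in a melanoma-like replicate were 7, in EV h7.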
